A study of Mus musculus with 46 samples.

Results

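The constructs described here are reporter plasmids that carry a promoter fragment of the mouse Nanog locus other than the Nanog promoter itself. They were taken from the library of that locus wherever such a promoter was the second fragment, next to the reporter, behind a candidate cis-regulatory element (cCRE) or behind another promoter, or the first fragment in front of a cCRE. These rules gave 2541 of the 13524 constructs in the Nanog library and of the 91657 in the series. Of them, 1136 hold a cCRE and then a promoter, 1270 a promoter and then a cCRE, and 135 a promoter and then a promoter. They use 17 of the library's 18 promoter fragments. The remaining fragment, the Nanog promoter P010, has 446 constructs of the same kinds and serves as the comparison. A value of 0 in a replicate occurred in 140 of the 2541 constructs (5.51%), which were left out.

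The study asked how far enhancers and promoters of a locus are compatible when they are tested in combinations outside the genome. A massively parallel reporter assay was used, in which each plasmid carries a barcode that is transcribed when the inserted DNA drives the reporter. The pool of Klf2, Nanog and negative control libraries was brought by nucleofection into E14TG2a cells, an established mouse embryonic stem cell line, grown in 2i+LIF medium, which holds them in a naive pluripotent state. There were 3 biological replicates, all given the same pool and collected after 24 h, and no group differed in genotype or treatment, so every comparison is between constructs within these 3 transfections.

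A promoter is the stretch around a transcription start where the basal transcription machinery assembles, and an enhancer is an element that raises transcription from a promoter at a distance. Promoters differ in the elements they carry, and genes that are silent in a cell type may have promoters that do little alone. The Nanog locus on chromosome 6 joins both situations. Nanog and Dppa3 are expressed in naive pluripotent cells, M6pr encodes a mannose 6-phosphate receptor used in lysosomal sorting in most cells, and the Clec4 genes encode C-type lectin receptors of myeloid cells.

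Genes were named from fragment coordinates in mm10, as the deposited table gives them. Each fragment spans 450 bp from start to end. The convention for the start (counted from 0 or from 1) is not given in the sources used here, so positions may be off by 1 base. Fragment P001 (chr6:122308357-122308807) covers the annotated start of M6pr. P002 (chr6:122340486-122340936) lies 259 bp outside the start of Phc1, which encodes a Polycomb protein. P003 (chr6:122391003-122391453) covers the start of the long noncoding RNA gene 1700063H04Rik. P004 (chr6:122498686-122499136) has no annotated gene start within 500 bp, the nearest being Rimklb at 11624 bp, and keeps its number. P007 (chr6:122602339-122602789) lies 235 bp from the annotated outer edge of Apobec1, the gene of the RNA-editing cytidine deaminase. The Apobec1 promoter window printed below lies within the fragment and places a start inside it. P009 (chr6:122626034-122626484) covers the start of Dppa3, and P014 (chr6:122856086-122856536) that of C3ar1, the receptor for complement fragment C3a.

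The Clec4 cluster holds 9 of the fragments. P016 (chr6:122921155-122921605) and P017 (chr6:122921472-122921922) both belong to Clec4a1 and share 133 bp, so they are not independent. The rest are P018 of Clec4a3 (chr6:122952139-122952589), P019 of Clec4a4 (chr6:122989991-122990441), P020 of Clec4b1 (chr6:123049586-123050036), P022 of Clec4b2 (chr6:123172517-123172967), P023 of Clec4n (chr6:123229467-123229917), P024 of Clec4d (chr6:123261735-123262185) and P025 of Clec4e (chr6:123289795-123290245). The Nanog promoter P010 is at chr6:122707113-122707563. A plus or minus after a fragment's number is the orientation listed in the deposited table. Whether it refers to the genome or to the reporter is not given in the sources used here.

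Sequence was read from RefSeq promoter windows of GRCm38.p6, the assembly that mm10 displays, for the 250 bases before a gene's start. For 9 of the 17 fragments, 6 of them of the Clec4 cluster, such a window lay in the fragment for at least 100 bases. No entry was matched for M6pr, Dppa3, Clec4a4 and Clec4n. The windows below are a selection from promoters whose values are given in the text, with the Nanog promoter first for comparison. They run 5′ to 3′ on the strand of the gene, and capitals mark each CG dinucleotide. The Clec4b2 window is cut at the fragment's edge to 195 bases.
Nanog P010, chr6:122707239-122707488, plus strand: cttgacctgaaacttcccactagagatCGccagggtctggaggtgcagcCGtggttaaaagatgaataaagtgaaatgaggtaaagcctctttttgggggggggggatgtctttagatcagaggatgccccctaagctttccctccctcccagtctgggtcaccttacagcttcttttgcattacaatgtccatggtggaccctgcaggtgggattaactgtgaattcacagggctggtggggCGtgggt
Apobec1 P007, chr6:122602445-122602694, minus strand: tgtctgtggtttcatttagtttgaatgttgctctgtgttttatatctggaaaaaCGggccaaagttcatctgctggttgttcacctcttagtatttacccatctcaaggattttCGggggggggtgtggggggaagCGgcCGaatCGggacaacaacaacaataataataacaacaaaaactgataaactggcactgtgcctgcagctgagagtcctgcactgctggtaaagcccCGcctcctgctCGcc
1700063H04Rik P003, chr6:122391129-122391378, plus strand: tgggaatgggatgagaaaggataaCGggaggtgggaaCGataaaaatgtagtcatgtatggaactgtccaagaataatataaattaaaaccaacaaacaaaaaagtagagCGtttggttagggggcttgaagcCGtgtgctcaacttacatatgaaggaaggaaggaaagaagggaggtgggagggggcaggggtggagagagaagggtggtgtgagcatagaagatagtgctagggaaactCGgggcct
C3ar1 P014, chr6:122856158-122856407, minus strand: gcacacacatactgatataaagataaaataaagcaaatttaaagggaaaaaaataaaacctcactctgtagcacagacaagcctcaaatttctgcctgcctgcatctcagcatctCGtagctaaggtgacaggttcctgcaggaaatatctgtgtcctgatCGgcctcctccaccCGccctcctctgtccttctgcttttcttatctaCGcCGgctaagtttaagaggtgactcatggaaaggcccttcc
Clec4a1 P017, chr6:122921598-122921847, plus strand: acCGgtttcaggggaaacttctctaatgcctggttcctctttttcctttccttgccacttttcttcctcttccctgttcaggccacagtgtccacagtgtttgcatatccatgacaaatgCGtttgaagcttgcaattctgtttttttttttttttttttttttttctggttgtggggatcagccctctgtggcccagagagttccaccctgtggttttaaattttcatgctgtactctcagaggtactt
Clec4b2 P022, chr6:123172773-123172967, plus strand: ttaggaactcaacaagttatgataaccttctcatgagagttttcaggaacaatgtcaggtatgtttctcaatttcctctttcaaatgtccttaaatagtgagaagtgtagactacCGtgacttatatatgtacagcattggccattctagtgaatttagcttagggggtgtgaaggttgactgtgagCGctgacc
Clec4d P024, chr6:123261857-123262106, plus strand: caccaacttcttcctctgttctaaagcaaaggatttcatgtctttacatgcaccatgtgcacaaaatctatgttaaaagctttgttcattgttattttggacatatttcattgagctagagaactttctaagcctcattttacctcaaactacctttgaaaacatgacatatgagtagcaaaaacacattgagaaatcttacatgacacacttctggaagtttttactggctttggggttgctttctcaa
Clec4e P025, chr6:123289872-123290121, minus strand: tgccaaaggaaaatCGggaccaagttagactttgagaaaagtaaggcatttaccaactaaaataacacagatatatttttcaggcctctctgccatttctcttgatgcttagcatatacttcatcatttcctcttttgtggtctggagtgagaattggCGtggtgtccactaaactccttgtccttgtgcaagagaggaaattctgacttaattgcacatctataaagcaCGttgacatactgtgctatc

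The 9 member windows held 0 to 7 CG dinucleotides, against 3 in the Nanog window and a median of 6 over 32851 mouse promoter windows of 250 bases. Apobec1 had the most and Clec4d none. Letters of a TATA box (TATAAA, either strand) occurred in 4 of the 9, those of 1700063H04Rik, Apobec1, C3ar1 and Clec4e, and in 12.4% of all windows. The letters AGGAAG (either strand), which contain the GGAA core of ETS factors such as the myeloid factor PU.1, occurred in 4 of the 9, those of 1700063H04Rik, Clec4a1 P017, Clec4a3 and Clec4d, and in 29.5% of all windows. The GC box GGGCGG (either strand, and itself containing a CG) occurred in 1 of the 9, that of C3ar1, and in 32.7% of all windows. Such a match is a run of letters and not a bound site.

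Activity is the deposited ratio of barcodes in reporter RNA to barcodes in plasmid DNA, on a linear scale. The empty vector measured 0.118, 0.0675 and 0.238 in replicates 1, 2 and 3. The median of 200 single cCRE constructs was 0.134, 0.0638 and 0.255. The members' medians, over the 2401 constructs above 0 in every replicate, were 0.115, 0.0515 and 0.245. Most members therefore sat at the level of the empty vector, which itself was lowest in replicate 2 and highest in replicate 3, and 267 of the 2401 (11.1%) had a mean above an activity of 1. Between replicates, log2 activity of the members correlated at r = 0.83 to 0.85 across constructs, which are not independent because they share fragments.

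Alone, M6pr in the plus orientation was by far the most active of the promoters described here. Its activity was 4.69, 4.51 and 3.91, above the Nanog promoter in the plus orientation at 0.789, 0.627 and 0.864. All 3 M6pr values exceeded all 3 Nanog values, and M6pr was higher by 2.53 on the log2 scale (adjusted p = 0.005, limma). The turned M6pr fragment measured 0.333, 0.278 and 0.415. The plus orientation was therefore 12.9-fold more active, a log2 difference of 3.69 with SE 0.35 (adjusted p = 0.0044, limma). It was the only orientation difference to pass among 15 member fragments measured both ways, in a library where 1.79% of 112 fragments did. The difference did not pass without replicate 1 or without replicate 3.

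No other member fragment stood clear of the library's single cCREs. M6pr in the plus orientation was 5.07 above the median cCRE on the log2 scale (SE 0.83, adjusted p = 2.98e-07, limma), and it was the only one of 32 oriented members to pass, while 11.1% of the library's 234 single constructs did. The fit gave the same SE to all 32 oriented members, so it does not measure the spread of the M6pr replicates themselves. The other 31 ranged from 0.069 to 0.333 in replicate 1, from 0.0144 to 0.278 in replicate 2 and from 0.160 to 0.418 in replicate 3. M6pr in the minus orientation was next, then Phc1 in the plus orientation at 0.320, 0.277 and 0.418, followed by Apobec1 in the plus orientation at 0.253, 0.213 and 0.397. All of these lay above the empty vector in every replicate. Against the empty vector as well, only M6pr in the plus orientation passed, although 7 of the 32 were above it in all replicates and 14 below it in all.

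With the replicate as a block, which compares values within each transfection, 6 of the 32 passed, in a library where 22.2% did. The 3 higher ones were both M6pr orientations and Phc1 in the plus orientation. The 3 lower ones were Clec4b1 in the plus orientation (0.069, 0.0221 and 0.160) and Clec4b2 in both orientations (0.0863, 0.0340 and 0.174, and 0.0708, 0.0271 and 0.166). Each of these Clec4 values was below the empty vector of its own replicate.

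The Clec4 promoters were low as a group. Their 17 oriented constructs ranged from 0.069 to 0.158 in replicate 1, from 0.0221 to 0.0681 in replicate 2 and from 0.160 to 0.273 in replicate 3, and none was above the empty vector in all 3 replicates. All 17 were lower than the Nanog promoter in the same orientation. In all, 29 of the 32 oriented members were lower than the Nanog promoter and 1 was higher, and the 2 that did not pass were M6pr in the minus orientation and Phc1 in the minus orientation.

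Dppa3 was the only member on the list of pluripotency genes, which also held Gdf3, Zfp42, Pou5f1, Sox2, Klf4, Esrrb, Tfcp2l1, Tdgf1 and Utf1. Dppa3, also called Stella, encodes a chromatin-associated factor of naive stem cells, germ cells and the oocyte. Its fragment was measured in the minus orientation alone, at 0.114, 0.0144 and 0.384. These values straddle the empty vector, with 1 of 3 replicates above it, and the replicate 2 value was the lowest of any member alone in that replicate. The level was 5.03-fold below the Nanog promoter in the minus orientation (adjusted p = 0.049, limma). The Dppa3 fragment alone lay below all Clec4 promoters in replicate 2, among them in replicate 1 and above them in replicate 3.

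With a cCRE in front, a minority of pairs rose by a large factor, and for most pairs no change was called. The median SE of a change was 0.83 on the log2 scale, so a pair without a call may still have changed. Most of the promoters alone lay near the empty vector, and how far that limits a fall was not tested. Of 1072 pairs of a cCRE and a member promoter with a measured baseline, 123 (11.5%) were higher than the same oriented promoter alone and none was lower at an adjusted p under 0.05 (limma). Over the whole library, Nanog promoter included, 13.1% of 1256 pairs passed, 12.8% as higher, so the members' share is near that background. With the replicate block 168 were higher and 9 lower, against 19.8% of the library in either direction. No called pair overlapped its baseline. The median change over all 1072 was -0.08 on the log2 scale, and over the 123 it was 3.57, from 2.30 to 5.53. For the Nanog promoter 38 of 184 pairs were higher and 3 lower, with a median of 0.31. Leaving out replicate 1 removed every call, while leaving out the second or the third replicate left 100 and 132.

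Most called pairs came from few cCREs, and the cCREs were not tested equally often. Of the 123 pairs, 98 (79.7%) contain E064, E073 or E074, for which 86% of 114 tested pairs passed, against 2.61% of the other 958 pairs. E073 (chr6:122702445-122702895) and E074 (chr6:122702829-122703279) lie between genes, share 66 bp, and end 3834 bp before the Nanog promoter fragment. E064 (chr6:122662793-122663243) also lies between genes. With E073 and E074 left out and the fit and adjustment repeated, 25 of 997 pairs passed. Pairs that remained had larger adjusted p-values there. That of E064 in the minus orientation with Clec4a1 P017 in the plus orientation went from 0.011 to 0.025 (limma). These 25 are a different set from the raised pairs without E064, E073 or E074.

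All of these cCREs were active with no promoter fragment beside them. E073 in the plus orientation measured 3.67, 3.84 and 3.50 alone, and E074 in the plus orientation 4.01, 4.02 and 3.70. E064 in the minus orientation measured 2.18, 2.29 and 2.39. They exceeded every member promoter alone except M6pr in the plus orientation.

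Mean boost, the log2 activity of a pair over the median construct with the same oriented promoter, ranked the 69 cCREs measured with at least 3 member promoters. E073 led at 3.93 over 10 promoters, followed by E074 at 3.57 over 16, E064 at 3.20 over 14, E090 at 2.29 over 11 and E116 at 2.02 over 9. E090 (chr6:122770250-122770700) lies within Slc2a3, which encodes the glucose transporter GLUT3, and E116 (chr6:122935645-122936095) lies 1026 bp from Clec4a1. At the lower end were E020 within Rimklb at -0.77 over 4 promoters, E094 within Slc2a3 at -0.63 over 7 and E087 within Slc2a3 at -0.62 over 3. Of the 69, 8 had a called pair with a member, and no pair with the lowest 3 was called.

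The Clec4a1 fragment P017 gave the largest rise. With E074 in front, both in the plus orientation, activity was 4.79, 6.15 and 5.83, where the promoter alone had 0.121, 0.0574 and 0.250. The change was 5.53 on the log2 scale (SE 0.65, adjusted p = 0.011, limma), and every value of the pair lay far above every baseline value. The same P017 promoter behind E064 in the minus orientation reached 2.76, 4.31 and 4.19, a change of 4.94. The pair with E074 thus reached activities above those of M6pr alone, a comparison that was not tested, with a promoter fragment that alone was at the level of the empty vector. E074 in the plus orientation by itself measured 4.01, 4.02 and 3.70. The pair was higher than that by 0.51 (adjusted p = 0.435, limma).

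Clec4e, whose product Mincle senses mycobacterial glycolipids, came next. P025 in the minus orientation measured 0.0874, 0.0418 and 0.214 alone, and 2.92, 2.56 and 2.92 behind E064 in the minus orientation, a change of 4.92. Behind E074 in the plus orientation it measured 2.58, 2.78 and 2.89, a change of 4.90. The values with these cCREs, which share no sequence by position, differed little from each other.

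The highest absolute level among these rises belonged to Apobec1. P007 in the plus orientation measured 7.34, 7.37 and 8.58 behind E074 in the plus orientation, from a baseline of 0.253, 0.213 and 0.397, a change of 4.80 (SE 0.48, adjusted p = 0.011, limma). The fragment P004 without an annotated start measured 4.32, 5.14 and 4.41 behind E064 in the minus orientation, a change of 4.67. P004 was therefore among the largest rises although no annotated gene start lies near it.

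Further pairs among the 10 largest rises used the same cCREs. The noncoding RNA gene 1700063H04Rik (P003, minus) measured 2.36, 3.04 and 2.56 behind E073 in the plus orientation, a change of 4.71. Clec4n (P023, plus), which encodes the fungal sensor Dectin-2, measured 2.34, 2.33 and 2.12 behind E073 in the minus orientation, a change of 4.63. Clec4a1 (P017, minus) measured 2.90, 3.39 and 2.93 behind the same element, a change of 4.84.

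Other promoters had their highest called pair with the same elements too. C3ar1 (P014, minus) rose by 4.57 behind E074 in the plus orientation, Clec4d (P024, plus) by 4.47, Clec4a3 (P018, plus) by 4.38 and Clec4b2 (P022, minus) by 4.36. Clec4a1 P016 in the minus orientation rose by 4.24 behind E073 in the plus orientation, and Clec4a4 (P019, minus) by 3.63 behind E064 in the minus orientation. The Clec4a3 pair was the most variable, at 1.46, 4.29 and 2.68. M6pr in the minus orientation rose by 2.76 behind E074 in the plus orientation, from the baseline above to 2.01, 2.87 and 2.05.

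Of the 17 fragments, 14 had a called pair. The 3 without were Phc1, Dppa3 and Clec4b1. Phc1 was measured with 1 cCRE, E111 in the plus orientation, at 0.239, 0.292 and 0.291. These values overlapped its baseline of 0.320, 0.277 and 0.418 (change -0.29, SE 0.46). Clec4b1 had 5 pairs, the highest being E074 in the plus orientation in front of P020 in the minus orientation at 0.662, 0.697 and 0.696. All 3 values exceeded the baseline of 0.0893, 0.0335 and 0.268, but the change of 2.88 had an adjusted p of 0.063 (limma).

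The Dppa3 promoter had a single pair, with E074 in the plus orientation, and none in the other classes. Its values were 1.45, 1.74 and 2.50, all above the baseline, and the change was 4.43 (SE 1.16, adjusted p = 0.051, limma). It passed with the replicate block (adjusted p = 0.023) and not without replicate 1 (adjusted p = 0.423). The planned test of pluripotency promoters against the others, cCRE by cCRE, could not be fitted with this 1 cCRE. As a description, E074 in the plus orientation was measured with 28 oriented members of 16 promoters, and Dppa3 stood 14th of the 28 by activity and 8th by change. The changes in that set ran from 0.35 for M6pr in the plus orientation to 5.53, with a median of 4.07. In this 1 setting the Dppa3 fragment lay among the promoters of the other genes.

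Set beside each other, Clec4 promoters had 78 of 770 pairs higher (10.1%), with a median change of -0.09, and the other members had 45 of 302 (14.9%), with a median of -0.06. The difference between these shares was not tested, and the promoters were not measured with the same cCREs. Mean boost over the 13 promoters with at least 10 pairs had a median of 0.633 and was lowest for M6pr, at 0.0850. Without replicate 2 the median was 0.417 and the M6pr value 0.0307, still the lowest. For the 58 oriented pairs measured with both Clec4a1 fragments, P017 exceeded P016 in 29, and the median difference was -0.01.

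M6pr in the plus orientation was the exception among the members. None of its 39 pairs passed, the median change was -0.51, and in 26 pairs all 3 values were below all 3 of the promoter alone. The lowest was E093 in the plus orientation in front of it, at 1.70, 2.06 and 1.87 against 4.69, 4.51 and 3.91, a change of -1.22 (adjusted p = 0.165, limma; adjusted p = 0.033 with the replicate block). The highest were with E074 and E064, which also supplied many of the called rises over a promoter alone and were active without one. E074 in the minus orientation gave 6.32, 7.71 and 6.34, a change of 0.63, and E064 gave 7.12, 6.59 and 5.45 in the plus orientation and 6.91, 7.14 and 5.93 in the minus orientation. Those last pairs lay above the promoter alone in every replicate, without passing the test. The turned M6pr promoter had 1 call in 11 pairs and a median change of 0.52.

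Compared with the cCRE alone instead of the promoter alone, most of the responsive pairs were lower. Against their cCRE, the 123 raised pairs had a median difference of -0.92, and 93 of them lay below all 3 values of the cCRE and 14 above. By test, 41 were lower than the cCRE and 1 was higher, that of E120 in the minus orientation with Apobec1 P007 in the minus orientation (0.634, 0.732 and 0.745, a difference of 2.13). Over all 1072 pairs, 40 were higher and 92 lower than the cCRE alone, 12.3% against 17.4% of the library's 1256 pairs, of which 7.32% were lower. Under the replicate block 53 were higher and 217 lower, against 32.6% of the library in either direction. The excess of lower calls was not kept when a replicate was left out, with 0 higher and 0 lower without replicate 1, 32 and 4 without replicate 2, and 32 and 20 without replicate 3. The Nanog promoter had 86 of 184 pairs higher than the cCRE alone and none lower (135 had an unadjusted p under 0.05). The members were not alike in this, since their 40 higher calls include pairs of M6pr in the plus orientation. That promoter behind E093 in the plus orientation exceeded the cCRE by 3.40, and behind E105 in the minus orientation by 4.51. For the E074 pair of Clec4b2 (P022, minus), 1.12, 1.51 and 1.63 stood against 4.01, 4.02 and 3.70 for E074 alone, a difference of -1.48 (adjusted p = 0.034, limma). Most of the 123 raised pairs thus lay below the element by itself. Others lay above all 3 of its values without a call. Among those were E064 in the minus orientation with P004 in the plus orientation, and E074 with Apobec1 P007, both in the plus orientation.

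The 25 raised pairs without E064, E073 or E074 involved other elements. E090 had 6 of 19 tested pairs, E116 had 5 of 26, E005 had 4 of 4, E134 had 3 of 15 and E023 had 2 of 2. E136 had 2 of 14, E120 had 1 of 10, E122 had 1 of 1 and E138 had 1 of 2. E005 was measured with 2 member promoters and E023 with 1. E023 in the plus orientation in front of Clec4a1 P016 in the minus orientation measured 1.29, 1.78 and 2.43, a change of 4.07, and E090 in the minus orientation in front of Clec4a1 P017 in the plus orientation measured 3.82, 1.45 and 1.55, a change of 4.09. Both were named after their values were seen. Distance in the genome between cCRE and promoter had a Spearman rho of 0.01 with the change over the 1072 pairs, which share fragments. Of 71 pairs closer than 50 kb, 2 passed (2.82%), and of 1001 more distant pairs 121 passed (12.1%). The closer pairs held 0 of the 114 pairs with E064, E073 or E074, and the difference between these shares was not tested.

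How the same cCRE acted on the Nanog promoter and on the others was compared for 104 oriented cCREs, in a test added after seeing the data. For each, the mean change over member promoters was set against the change of the Nanog promoter, in each replicate. The Nanog side was 1 construct or the mean of 2, by cCRE. A difference passed for 41 of the 104 (39.4%), 30 with the members lower and 11 with the members higher. In all 30, the Nanog promoter was above its own baseline, with a median change of 1.53 against -0.16 for the members. In the 11, the Nanog promoter was below its baseline, with a median of -1.68 against -0.34. Against the empty vector, the member promoters alone had a median of -0.24 on the log2 scale. The Nanog promoter in the plus orientation had 2.61. How far a baseline near the empty vector limits a fall was not tested. With the replicate block 42 passed (40.4%), and without replicate 1, 18 of the 104 passed.

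The clearest such element was E137 in the minus orientation (chr6:123289327-123289777), within Clec4e. The Nanog promoter changed by 2.55, 3.33 and 2.53 behind it in the 3 replicates, measured in 1 construct. The mean over 3 member promoters was -0.13, 0.00 and -0.51, so the members were lower by 3.02 (SE 0.31, adjusted p = 0.00038, limma). Turned to plus, the same element differed by -2.72, again with 1 Nanog construct. E096 in the plus orientation (chr6:122801019-122801469), within Slc2a3, gave 2.27, 2.23 and 1.87 with Nanog, also in 1 construct. With the members it gave -0.55, -0.75 and -0.04, a difference of -2.57. In these constructs activity was above that of the Nanog promoter alone, while the averaged members stayed near their own level.

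The opposite case was E103 in the plus orientation (chr6:122828051-122828501), within the forkhead gene Foxj2. With the Nanog promoter it gave -2.32, -1.73 and -1.43, measured in 1 construct. With 2 member promoters, whose baselines lay near the empty vector, it gave -0.55, 0.47 and 0.03, a difference of 1.81 (adjusted p = 0.0039, limma). E073, E074 and E064 showed no difference that passed in either orientation. For E074 in the plus orientation the members' mean change was 3.90 and that of Nanog 3.32, a difference of 0.58 with SE 0.52 over 16 promoters. For E064 in the minus orientation these were 3.54 and 3.55. Missing the threshold at these standard errors does not show that the elements act alike on both kinds of promoter.

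Exchanging the places of promoter and cCRE gave lower values on average when the cCRE came first. Among 509 couples with both orders measured, 19 (3.73%) were lower with the cCRE first and none was higher, in a library where 4.17% of 647 passed, 3.25% as lower and 0.927% as higher. The replicate block gave 27 calls, against 5.72% of the library. The mean difference over the 509 was -0.38 ± 0.08 on the log2 scale (SD, n = 3 replicates), being -0.41, -0.43 and -0.29 in the replicates. In couples with E064, E073 or E074 it was -1.05 ± 0.08 (SD, n = 3) over 76, 71 of them below 0, and in the others -0.26 ± 0.08 (SD, n = 3) over 433. An exact two-sided sign-flip test on 3 replicate means cannot go below p = 0.25. The 19 calls were lost when any 1 replicate was left out.

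The largest called order difference was that of E064 in the plus orientation and Clec4b2 in the minus orientation. With the cCRE first the activity was 0.168, 0.0985 and 0.336, and with the promoter first 1.26, 1.46 and 1.62, a difference of -3.02 (SE 0.51, adjusted p = 0.042, limma). For the same element with P004 in the minus orientation the values were 0.585, 0.720 and 0.568 against 4.22, 4.39 and 4.17, a difference of -2.78. With 1700063H04Rik in the minus orientation they were 0.526, 0.767 and 1.24 against 4.96, 4.54 and 4.43. In each of these the element was stronger when it lay next to the reporter. Clec4b2 supplied 6 of the 19 calls from 58 couples tested, Clec4n 4 from 153 and C3ar1 2 from 10. The 8 M6pr couples, all with its weak minus orientation, ran the other way. Their median was 1.09 with 7 of 8 above 0, though none passed. Couples with the Nanog promoter also had a median above 0, at 0.41, with 98 of 138 above 0.

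With the promoter first and the cCRE next to the reporter, few constructs differed from the cCRE by a called change. Against the cCRE alone, 7 of 1211 such constructs were higher and 1 was lower (0.661% in all, against 3.79% of the library's 1450 and 3.72% as higher), in a test added after seeing the data. The median change was -0.43, and 935 of the 1211 were below 0. With the replicate block 23 were higher and 39 lower, while 12% of the library passed. Leaving out any 1 replicate removed all calls. Of 239 constructs with the Nanog promoter first, 47 were higher.

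Apobec1 in the plus orientation supplied 5 of the 7 higher constructs, out of 26 tested, which had a median change of 1.09. In front of E121 in the plus orientation it gave 1.98, 4.12 and 2.64 where E121 alone had 0.0583, 0.114 and 0.354, a change of 4.39 (SE 0.74, adjusted p = 0.043, limma). In front of E120 in the minus orientation it gave 1.86, 2.92 and 2.44 against 0.138, 0.103 and 0.286. In front of E064 in the plus orientation it reached 6.54, 10.4 and 7.20 against 2.08, 2.21 and 2.11. The remaining 2 calls with Apobec1 were E090 in the plus orientation (change 2.50) and E015 in the minus orientation (change 1.89). E120 (chr6:122989228-122989678) and E121 (chr6:122989394-122989844) overlap by position, so their calls are not independent. The turned Apobec1 fragment had no call in 21 constructs and a median change of 0.00.

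The other calls in this arrangement were from the Clec4 cluster. Clec4n in the plus orientation in front of E014 in the minus orientation measured 1.60, 1.16 and 1.26 against 0.127, 0.0609 and 0.251, a change of 3.41. Clec4a4 in the plus orientation in front of E090 in the plus orientation measured 3.04, 3.33 and 2.84 against 0.905, 0.850 and 1.02, a change of 1.73. The only lower construct was Clec4n in the minus orientation in front of E023 in the minus orientation, at 0.487, 0.497 and 0.732 against 2.29, 2.52 and 2.35, a change of -2.09. M6pr in the minus orientation, the only one measured in this place, had no call in 45 constructs and a median change of 0.72.

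A second promoter in front rarely gave a called change of a member promoter. Of 118 pairs, 1 was higher and none lower (0.847%, against 0.725% of the library's 138), and 4 had an unadjusted p under 0.05. The called pair was the Nanog promoter in the plus orientation in front of P004 in the plus orientation, at 2.46, 2.55 and 2.02 against 0.135, 0.143 and 0.307, a change of 3.69 (SE 0.54, adjusted p = 0.047, limma). It did not pass with the replicate block (adjusted p = 0.056) or without any 1 replicate. The Nanog promoter in front of 1700063H04Rik in the plus orientation gave 1.11, 0.954 and 0.966 against 0.206, 0.0940 and 0.241, a difference of 2.59 with an adjusted p of 0.189 (limma). The median over the 118 was -0.34, with 37 above 0.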

How the data were processed

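Mouse E14TG2a cells were transfected with 1 plasmid pool in 3 biological replicates, and RNA was taken after 24 h. The deposited activity is a linear ratio of cDNA to pDNA barcodes per construct and replicate. Per the submitters' processing notes Bowtie2 and mm10 were used. How barcodes were filtered, averaged and scaled is not given in the sources used here, and read and barcode numbers were not used, so depth per construct is unknown.

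Samples were grouped by title. Activities were log2 transformed, constructs at 0 in any replicate were left out, and 3 values were tested against 3 with limma 3.58.1 in R 4.3.3 (lmFit, eBayes). P-values were adjusted by Benjamini-Hochberg over the Nanog library within each comparison and called under 0.05. The script was tested on simulated data for pairs of a cCRE and a promoter. It recovered 43.3% of changes of 2 and 74.8% of changes of 3 on the log2 scale, and 5.56% of its calls there were false. Whether these rates hold for the deposited activities, whose level differs between replicates, was not tested. A pair and its baseline come from the same cDNA sample, so replicate numbers pair them. Their deviations from the group mean correlated at r = 0.04, 0.24 and 0.33 in replicates 1, 2 and 3. The fit with the replicate as a block was an alternative, as were a pseudocount of 0.01, a filter on the lowest 25% of activity, other baselines and leaving out each replicate.

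Promoter names took a gene start in the fragment or within 500 bp. Named pairs were the 10 largest called rises, up to 5 falls and each promoter's highest call. M6pr, Phc1, Dppa3 and Clec4b1 pairs outside that rule were added after their values were seen, as were the named constructs of the other arrangements. Named cCREs were the 5 highest and 3 lowest by mean boost. The members and lists were chosen with earlier results of these data known. The tests of a promoter in front of a cCRE, of pairs against the cCRE alone and of members against the Nanog promoter, the empty-vector reference and the omission of E073 and E074 were added after seeing the data. A wider pluripotency list with Slc2a3 had the same members. The values of 1 member fragment are not reported here by name.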

Additional observations from a re-analysis of the deposited data

Results flagged for a closer look

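The effect of 7 oriented cCREs differed most clearly, by adjusted p with ties kept, between the other promoters of the locus and the Nanog promoter, in limma's test of that difference itself. The change with the other promoters minus the change with the Nanog promoter was -3.02 for E137 in the minus orientation (within Clec4e) and -2.57 for E096 in the plus orientation (within Slc2a3), on the log2 scale, with adjusted p-values of 0.00038 and 0.00039. It was -1.96 for E085 in the plus orientation (within Slc2a3), -1.94 for E017 in the minus orientation (between genes, near Rimklb), -2.04 for E052 in the minus orientation (within Dppa3), -2.70 for E043 in the plus orientation (within Apobec1) and -1.84 for E114 in the plus orientation (between genes, near Clec4a1), each with an adjusted p of 0.0012. E017 rests on 10 member promoters, E114 on 6, E085 on 5, E052 on 4, E137 and E096 on 3 each and E043 on 1. On the Nanog side, E137, E096, E052 and E043 rest on 1 construct each, and E085, E017 and E114 on 2 each. With the replicate block their adjusted p-values were 0.00087 to 0.0047. The members' baselines lay near the empty vector and the Nanog baseline above it, and the part of that difference in level was not tested.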

How the results depend on the processing

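With the replicate block, called members rose from 132 to 270 for pairs against the cCRE alone, from 8 to 62 for promoter then cCRE and from 1 to 6 for promoters alone, and fell to 0 for promoter then promoter. The block moved no other count of called members by over 1.5 times (177 for cCRE then promoter). With E073 and E074 left out and the fit repeated, 25 cCRE-promoter pairs were called. With the lowest activities filtered, 46 order couples were called. Against the Nanog promoter, 30 promoters alone differed. Leaving out 1 replicate gave 0 to 132 calls for cCRE then promoter, 0 to 52 against the cCRE alone, 0 to 0 for promoter then promoter, promoter then cCRE and order, 0 to 1 for orientation, 1 to 1 for promoters alone and 18 to 39 for members against the Nanog promoter. These settings have fewer samples. E074 with Dppa3, not called at an adjusted p of 0.051, passed with the block, the filter, the pseudocount and without replicate 2 or 3 (adjusted p 0.014 to 0.042). All 17 named called pairs kept their direction (2.29 to 6.03) and lost the call only without replicate 1. The mean boost of M6pr turned to -0.20 with the promoter alone as baseline. Medians over cCREs are 0 by construction. The planned comparison by promoter class, and its alternatives, were not run because 1 cCRE was measured. Depth is unknown and 3 replicates limit the precision.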
